A study of Mus musculus with 16 samples.

Results

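Folding, quality control and heat shock were described here through 39 genes in cultured mouse airway epithelium. Of these, 32 serve the endoplasmic reticulum (ER) and 7 encode cytosolic heat shock proteins. The genes were taken by symbol from a list whose rule used no measured value, but which was chosen with earlier results of these data known. All 39 had a probe set (a group of array probes for 1 transcript) among the 18193 genes measured. Each gene was represented by the brightest probe set annotated to it alone, and its level is the log2 of the intensity.

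Proteins destined for secretion or for membranes are threaded into the ER, where chaperones such as BiP (Hspa5), disulfide isomerases and the lectins calnexin and calreticulin help them fold. When unfolded proteins accumulate, the sensors IRE1 (Ern1, Ern2), PERK and ATF6 start the unfolded protein response: XBP1 and ATF6 raise chaperones and degradation factors, and ATF4 raises amino acid supply and, through CHOP (Ddit3), stress-induced death genes. In the cytosol, heat shock factor 1 raises HSP70, HSP40, HSP110 and small heat shock proteins when proteins unfold there. Airway goblet and club cells secrete mucins and other cargo, so their epithelium relies on this machinery.

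The study asked how airway epithelial cells respond to injury with and without matrilysin (Mmp7, a secreted metalloproteinase). Cells of C57BL/6 mice, either wild-type or Mmp7-/- (called Mmp7-null here), were grown at an air-liquid interface and left uninjured or scratched 3 times with a pipette tip, and all were kept in serum-free medium for 24 h before RNA was taken. The 4 groups (wild-type uninjured, wild-type scratched, Mmp7-null uninjured, Mmp7-null scratched) held 4 cultures each, with 1 Affymetrix array per culture. The labels used here give neither the age of the mice, the time from scratch to harvest nor which cultures shared an animal, so the p-values cover the spread between cultures and nothing beyond it.

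The single Mmp7 probe set lay at background on all 16 arrays, with group means (± SD, n = 4) of 2.16 ± 0.01 in wild-type uninjured, 2.17 ± 0.05 in wild-type scratched, 2.15 ± 0.02 in Mmp7-null uninjured and 2.31 ± 0.19 in Mmp7-null scratched cultures. It could not check the genotype labels. Of 8 airway epithelial markers 7 were above background (2.77, the 95th percentile of spiked controls absent from an array), the exception being Nkx2-1, and 0 of 6 endothelial markers were. Median intensities ran from 9.34 to 10.2 on the linear scale. The 3 arrays named doubtful here stood apart: wild-type scratched 3 and Mmp7-null scratched 1 had the lowest upper quartiles of signal, and in wild-type scratched 4 the 3′ and 5′ ends of the actin control differed most. Spiked control transcripts divided the arrays into 3 sets, whose meaning the sources used here do not give, and the genotypes shared only the Phe set, with 2 Mmp7-null arrays and 1 wild-type array in each state. Genotype differences are therefore given also within the Phe set and with the set as a block, where the contrast rests on the shared Phe arrays.

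Before the levels, the promoter letters that the response is known to use are shown, because they divide the ER genes independently of the arrays. RefSeq promoter windows (GRCm38.p6, 250 bases before to 50 after the transcription start) were at hand for 32 of the 39 genes, 27 of the ER and 5 of the cytosolic arm. The ER stress response element, which NF-Y and ATF6 bind, was searched as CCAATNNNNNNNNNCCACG on both strands. It stood in the windows of 8 of the 27 ER genes and of 0 of the 5 cytosolic genes, against 0.137% of all 27025 genes with a window. The 9 copies are printed in the direction of the element with 10 bases on each side, and capitals mark CCAAT and CCACG. The strand given is the one printed.
Calr, chr8:84847065-84847103, plus strand: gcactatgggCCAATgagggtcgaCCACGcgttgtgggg
Canx, chr11:50325790-50325828, minus strand: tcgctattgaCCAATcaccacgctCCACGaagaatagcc
Creld2, chr15:88819510-88819548, minus strand: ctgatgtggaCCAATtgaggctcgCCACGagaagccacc
Dnajc3, chr14:118937817-118937855, plus strand: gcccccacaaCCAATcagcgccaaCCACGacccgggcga
Hsp90b1, chr10:86705523-86705561, plus strand: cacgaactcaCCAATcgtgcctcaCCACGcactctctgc
Hsp90b1, chr10:86705628-86705666, minus strand: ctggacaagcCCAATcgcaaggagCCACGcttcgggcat
Hspa5, chr2:34772015-34772053, plus strand: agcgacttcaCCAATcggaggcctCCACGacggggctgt
Pdia6, chr12:17266481-17266519, plus strand: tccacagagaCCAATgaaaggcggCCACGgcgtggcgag
Syvn1, chr19:6046522-6046560, plus strand: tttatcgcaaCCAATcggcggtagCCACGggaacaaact
Copies ran with the gene in Canx, Dnajc3, Hspa5, Pdia6, Syvn1 and 1 of the 2 copies of Hsp90b1, and against it in Calr, Creld2 and the other copy of Hsp90b1. Only the CCAAT and CCACG blocks were required, so the 9 bases between them and the flanks were free to differ.

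Each of the other motifs was in fewer of the listed genes, though in a larger share of all genes. The UPR element core TGACGTG was in 2 windows (Hspa5 and Sec24d; 2.22% of all genes). The ATF4 element TGATGNAA was in 4 (Asns, Chac1, Herpud1 and Trib3; 4.51% of all genes). The heat shock element, searched as GAANNTTCNNGAA, was in 1 (Hsph1, 1 site after the start that both of its windows hold; 0.662% of all genes). Both strands were searched for each motif, and 0 matches of different motifs overlapped. A match describes the letters only, and the lack of a match does not show that an element is absent.

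The HSP70 genes Hspa1a and Hspa1b are neighbours on chromosome 17 that encode nearly the same protein, and both passed in 2 of the comparisons described further on. The 200 bases before their starts were identical at 199 positions. They are printed in the direction of the gene, in lower case throughout because none of the 4 motifs was found in them as searched. Only exact matches to the motif letters were sought, so the search does not show that these promoters lack heat shock elements.
Hspa1a, chr17:34972157-34972356, minus strand: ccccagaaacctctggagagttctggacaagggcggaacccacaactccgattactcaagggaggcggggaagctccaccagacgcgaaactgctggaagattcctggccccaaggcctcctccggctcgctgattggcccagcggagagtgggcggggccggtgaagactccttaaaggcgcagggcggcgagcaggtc
Hspa1b, chr17:34959239-34959438, minus strand: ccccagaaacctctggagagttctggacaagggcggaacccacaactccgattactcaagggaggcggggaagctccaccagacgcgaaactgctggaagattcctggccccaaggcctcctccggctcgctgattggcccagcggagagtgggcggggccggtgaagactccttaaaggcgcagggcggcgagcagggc
Given so close a pair, the arrays may not fully separate their transcripts, and the signals of Hspa1a and Hspa1b are not independent measurements.

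Differences below are in log2 intensity with the standard error (SE) of limma's model over all 16 arrays, and p-values are adjusted by Benjamini-Hochberg over all 18193 genes. A gene passed where its adjusted p was under 0.05. After scratch in wild-type cultures, 0 of 39 genes passed, against 4.85% of all genes (limma; 5 of 39 had an unadjusted p under 0.05). After scratch in Mmp7-null cultures, 4 passed (10.3%), 1 higher and 3 lower, against 4.72% of all genes. Between genotypes, 4 passed in uninjured cultures (10.3%, against 4.79% of all genes), 1 higher and 3 lower in Mmp7-null. In scratched cultures 6 passed (15.4%, against 6.21%), 2 higher and 4 lower. No gene passed for the difference between the genotypes' scratch responses (0 of 39, with 1 at an unadjusted p under 0.05, against 0.132% of all genes). The arrays of the groups compared did not overlap for 2, 7, 8 and 8 of the 39 genes (scratch in wild-type, scratch in Mmp7-null, genotype uninjured, genotype scratched). Over all genes this held for 10%, 12.8%, 11.7% and 32.7%, so a lack of overlap alone says little, least between scratched genotypes. With this few genes, the shares are read as counts, and nothing particular to the list follows from them.

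**Figure D1:**
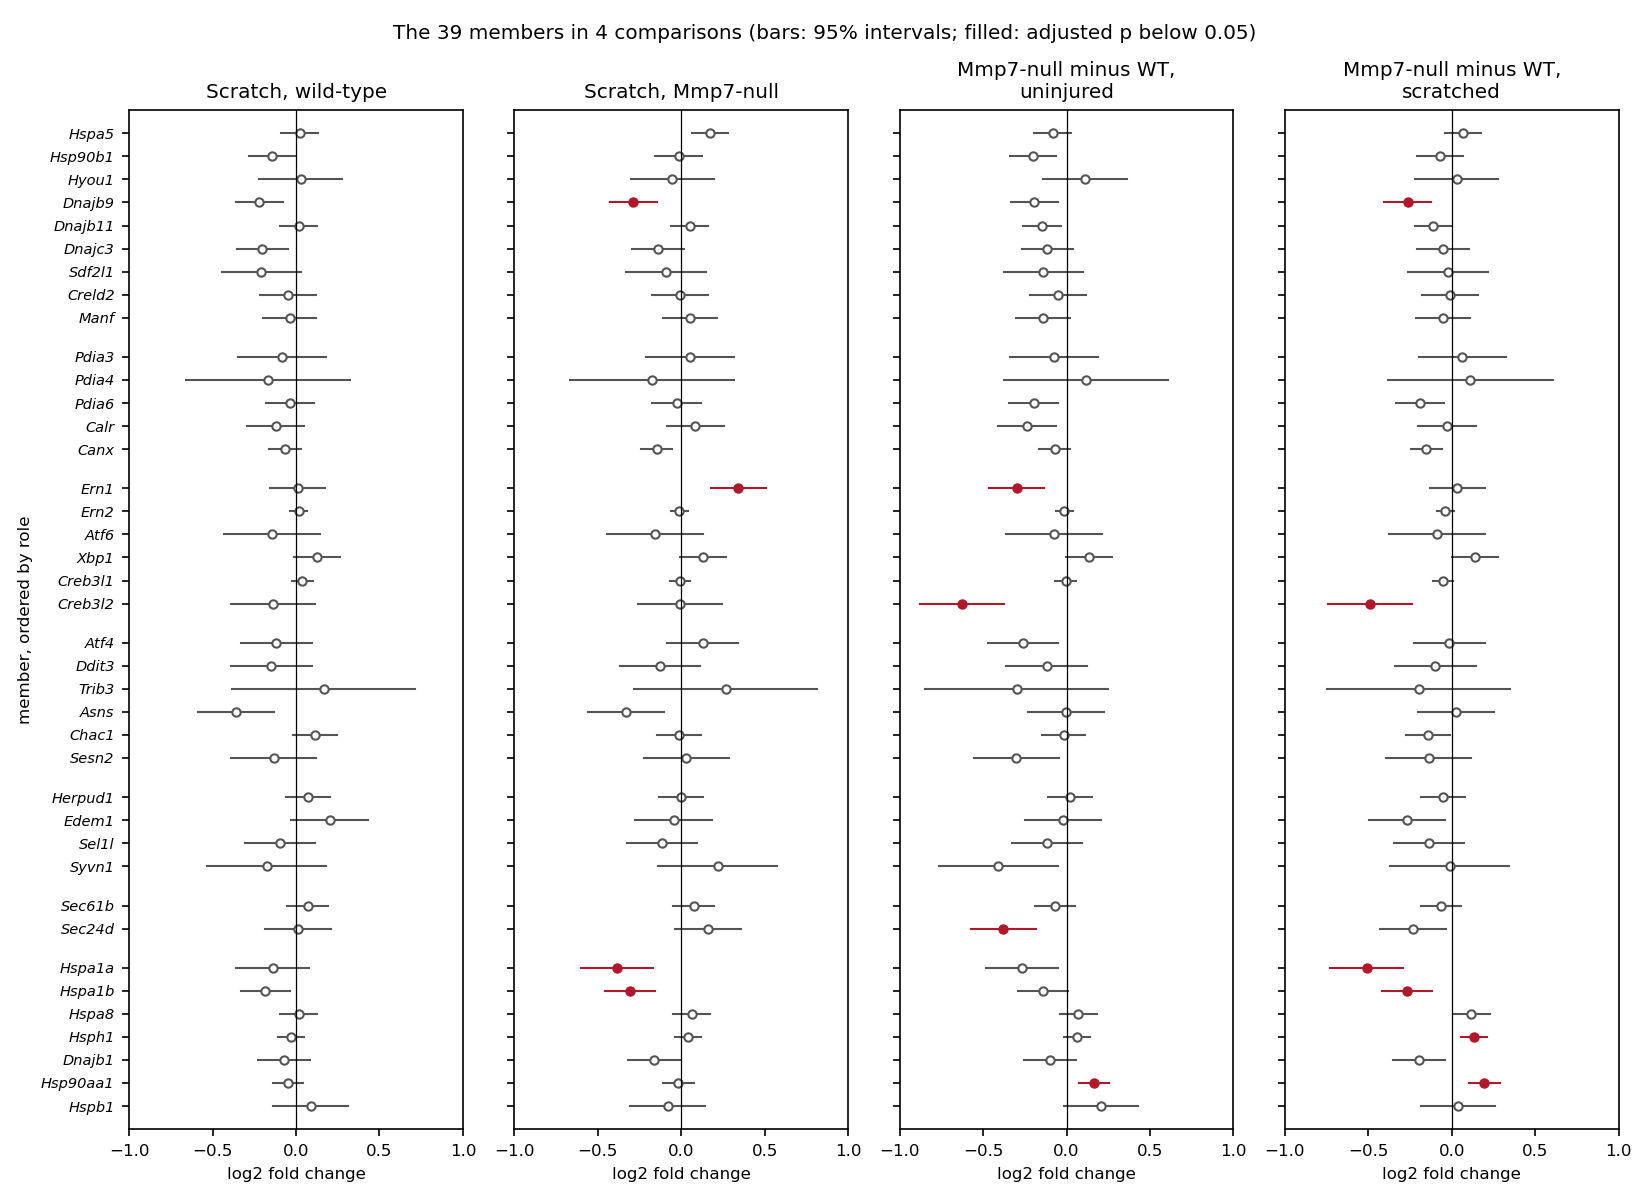
Log2 difference (horizontal axis) with its 95% interval for each of the 39 genes (vertical axis, ordered by role), in 1 panel for each of 4 comparisons; filled points had an adjusted p under 0.05. No point is filled for scratch in wild-type cultures, and the farthest filled point is Creb3l2 at -0.63 between genotypes in uninjured cultures.

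All differences were small. They ran from -0.36 to 0.20 for scratch in wild-type and from -0.38 to 0.34 for scratch in Mmp7-null cultures. Between genotypes they ran from -0.63 to 0.21 in uninjured and from -0.51 to 0.19 in scratched cultures. Of the 37 genes above background, 34 had a 95% interval inside a 1.5-fold change in either direction for each scratch comparison, and 33 for each genotype comparison. The intervals that reached beyond it were those of Pdia4 and Trib3 in all 4, Asns for scratch in wild-type, Hspa1a for scratch in Mmp7-null and for genotype in scratched cultures, Creb3l2 for both genotype comparisons and Syvn1 for genotype in uninjured cultures. Ern2 (2.31), the IRE1 form of mucous epithelium, and Creb3l1 (1.87) lay at background on average, and their fold changes say nothing.

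Among ER chaperones and cochaperones (9 genes), Dnajb9 (ERdj4, a BiP cochaperone and target of XBP1) fell after scratch in Mmp7-null cultures and was lower there than in scratched wild-type cultures. Its levels were 10.43, 10.64, 10.40 and 10.41 in wild-type uninjured cultures and 10.33, 10.28, 10.17 and 10.21 after scratch. In Mmp7-null cultures they were 10.31, 10.23, 10.27 and 10.29 uninjured and 9.86, 9.98, 9.94 and 10.16 after scratch. The Mmp7-null scratched arrays were lowest throughout, and their highest just touched the lowest wild-type scratched array without overlap. After scratch it fell by 0.29 (SE 0.07, adjusted p = 0.0231) in Mmp7-null cultures. In wild-type cultures the difference was -0.22 (adjusted p = 0.0799). The difference between the responses was only -0.07, so the call in 1 genotype alone does not show that they differ. The genotype difference after scratch was -0.26 (SE 0.07, adjusted p = 0.0298).

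BiP itself, Hspa5, was the brightest ER gene and did not pass in any comparison. It ran from 13.29 to 13.49 in wild-type uninjured, 13.38 to 13.52 in wild-type scratched, 13.27 to 13.41 in Mmp7-null uninjured and 13.42 to 13.58 in Mmp7-null scratched cultures. Every Mmp7-null scratched array was thus above every Mmp7-null uninjured one, by 0.17 on average (adjusted p = 0.0755), opposite in sign to Dnajb9. In wild-type cultures the difference was 0.02, with a 95% interval from -0.09 to 0.13. The dimmest of its 3 probe sets (mean 6.55) ran the other way, with -0.56 between genotypes after scratch (adjusted p = 0.0173 over the 34945 probe sets of a single symbol) against 0.07 and 0.04 for the brighter ones.

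The remaining ER chaperones did not pass. Hsp90b1 (GRP94) differed by -0.20 between genotypes in uninjured cultures, Dnajc3 (a BiP cochaperone that also inhibits PERK) by -0.20 after scratch in wild-type, and Sdf2l1 by -0.21 there. Dnajb11, Creld2 and Manf (a secreted ER stress protein) stayed between -0.15 and 0.05 in all 4 comparisons. Hyou1 (GRP170, the exchange factor of BiP) gave 0.11 and 0.03 between genotypes with the probe set used (mean 7.89). Its next probe set (mean 6.30) gave 0.77 and 1.17, the latter with an adjusted p of 0.0157 over probe sets, so the probe sets of Hyou1 disagree and its level between genotypes is not settled.

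Disulfide isomerases and lectin chaperones (Pdia3, Pdia4, Pdia6, Calr, Canx) held 0 passing genes of 5 for scratch and for genotype by limma, with 0, 1, 2 and 2 at an unadjusted p under 0.05 (scratch in wild-type, scratch in Mmp7-null, genotype uninjured, genotype scratched). Canx (calnexin) came nearest, at -0.15 after scratch in Mmp7-null cultures (adjusted p = 0.0759) and -0.15 between genotypes after scratch (adjusted p = 0.0552). Calr (calreticulin) was at -0.24 between genotypes in uninjured cultures (adjusted p = 0.124). A second Calr probe set (mean 11.6) gave -0.29 for scratch in wild-type cultures (adjusted p = 0.0307 over probe sets) where the set used gave -0.12. Pdia4 scattered most, from 7.55 in wild-type scratched culture 4 to 8.73 in Mmp7-null uninjured culture 1, within groups as much as between them.

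Among sensors and transcription factors (6 genes, 4 above background), Creb3l2 (BBF2H7, an ER-membrane transcription factor known to raise COPII coat proteins in cartilage) was lower in Mmp7-null cultures in both states. Its wild-type levels were 9.45, 9.55, 9.24 and 9.34 uninjured and 9.07, 9.18, 9.26 and 9.51 scratched. The Mmp7-null levels were 8.48, 8.80, 8.82 and 8.98 uninjured and 8.56, 8.89, 8.72 and 8.87 scratched. The genotypes did not overlap in either state (as for 11.7% of all genes uninjured and 32.7% scratched), whereas scratched and uninjured cultures overlapped within each genotype. The genotype difference was -0.63 (SE 0.12, adjusted p = 0.00715) in uninjured cultures, which is 1.54-fold lower, and -0.49 (SE 0.12, adjusted p = 0.0227) in scratched cultures. A second, dimmer probe set (mean 5.65) gave -0.57 and -0.66.

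Ern1, the widely expressed IRE1 sensor, was low in Mmp7-null uninjured cultures. Its levels were 8.16, 8.11, 8.10 and 8.07 in wild-type uninjured, 8.08, 8.03, 8.14 and 8.23 in wild-type scratched, 7.61, 7.71, 7.86 and 8.06 in Mmp7-null uninjured and 8.22, 8.14, 8.15 and 8.11 in Mmp7-null scratched cultures. The Mmp7-null uninjured arrays were low and more scattered, and the other 3 groups lay together. Scratch in Mmp7-null cultures raised it by 0.34 (SE 0.08, adjusted p = 0.0207), and it differed by -0.30 (SE 0.08, adjusted p = 0.0386) between Mmp7-null and wild-type uninjured cultures. For scratch in wild-type cultures the difference was 0.01, and the difference between responses, 0.33 (SE 0.11, adjusted p = 0.415), did not pass. The call rests on 1 probe set: the 4 dimmer ones (means 2.10 to 3.95) gave -0.04 to 0.03 between genotypes in uninjured cultures, and averaging the probe sets left 0.06 for scratch (adjusted p = 0.693) and -0.07 for genotype (adjusted p = 0.742). Xbp1 (the transcription factor spliced by IRE1) was between 0.13 and 0.14 in all 4 comparisons without passing, and Atf6 between -0.16 and -0.08; spliced and unspliced Xbp1 are not told apart by these values.

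The ATF4 branch held 0 passing genes of 6 by limma for the same 4, with 1, 1, 2 and 1 at an unadjusted p under 0.05. Asns (asparagine synthetase, an ATF4 target) came nearest for scratch in wild-type cultures, at -0.36 (SE 0.11, adjusted p = 0.0744). Its wild-type levels were 9.01, 9.07, 9.08 and 8.68 uninjured and 8.65, 8.47, 8.62 and 8.65 scratched, so that all scratched arrays were below the uninjured ones. In Mmp7-null cultures it was at -0.33 (adjusted p = 0.102), and its second probe set (mean 8.47) gave -0.31 there, with an adjusted p of 0.0453 over probe sets, and -0.21 in wild-type cultures (adjusted p = 0.183). Atf4 itself was at -0.12 and 0.13 for scratch in the 2 genotypes and at -0.26 between genotypes in uninjured cultures (adjusted p = 0.185), Ddit3 between -0.15 and -0.10, and Sesn2 at -0.30 between genotypes in uninjured cultures. Single arrays stood out for Trib3 (a pseudokinase induced by ATF4 and CHOP) and Chac1 (a glutathione-degrading target of ATF4). Wild-type scratched culture 1 had the highest level of both, 5.002 for Trib3 and 5.56 for Chac1, and Mmp7-null scratched culture 3 had 4.46 for Trib3.

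Degradation, translocation and export genes (6 genes) gave 1 call. Sec24d (the cargo-binding COPII coat protein) was at 8.88, 9.11, 8.82 and 8.81 in wild-type uninjured and at 8.50, 8.64, 8.46 and 8.51 in Mmp7-null uninjured cultures. After scratch the levels were 9.07, 9.02, 8.74 and 8.85 in wild-type and 8.52, 8.65, 8.68 and 8.89 in Mmp7-null cultures. The genotypes were apart in uninjured cultures, by -0.38 (SE 0.09, adjusted p = 0.0292), and overlapped after scratch, where the difference was -0.23. Herpud1, Sel1l and Syvn1 (the HRD1 ubiquitin ligase and its partners), Edem1 (which draws misfolded glycoproteins to degradation) and Sec61b (a translocon subunit) did not pass. Syvn1 had the widest span of these, -0.41 between genotypes in uninjured cultures with a 95% interval from -0.77 to -0.05 (adjusted p = 0.226).

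In the cytosolic arm, the inducible HSP70 genes Hspa1a and Hspa1b were lowest in Mmp7-null scratched cultures. Hspa1a was at 7.91, 8.13, 7.94 and 7.79 in wild-type uninjured and 7.73, 8.12, 7.65 and 7.71 in wild-type scratched cultures. In Mmp7-null cultures it was at 7.48, 7.75, 7.74 and 7.73 uninjured and at 7.30, 7.29, 7.18 and 7.39 scratched. All 4 Mmp7-null scratched arrays lay below every other array. It fell by 0.38 after scratch in Mmp7-null cultures (SE 0.10, adjusted p = 0.0454), and the scratched genotypes differed by -0.51 (SE 0.10, adjusted p = 0.00799). The difference between responses was -0.24 and did not pass.

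Hspa1b was at 12.16, 12.28, 12.24 and 12.04 in wild-type uninjured, 12.09, 12.03, 11.95 and 11.90 in wild-type scratched, 11.97, 12.03, 11.96 and 12.18 in Mmp7-null uninjured and 11.60, 11.85, 11.76 and 11.70 in Mmp7-null scratched cultures. The last group was again below every other array. It fell by 0.31 after scratch in Mmp7-null cultures (SE 0.07, adjusted p = 0.0211), where its other probe sets gave -0.34 and -0.37, and the scratched genotypes differed by -0.27 (SE 0.07, adjusted p = 0.0349). In wild-type cultures, scratch gave -0.18 for the probe set used and -0.17 and -0.31 for the others.

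Hsp90aa1 was higher in Mmp7-null cultures in both states, and Hsph1 after scratch. Hsp90aa1 (the inducible HSP90) was at 14.02, 14.07, 14.16 and 14.06 in wild-type uninjured and 14.02, 14.14, 14.00 and 13.95 in wild-type scratched cultures, against 14.33, 14.23, 14.19 and 14.21, and 14.25, 14.21, 14.24 and 14.20, in the Mmp7-null groups. The genotypes did not overlap in either state, with 0.16 (SE 0.04, adjusted p = 0.044) uninjured and 0.19 (SE 0.04, adjusted p = 0.0149) scratched. Of all genes, 11.7% did not overlap between uninjured and 32.7% between scratched genotypes. Averaging its 5 probe sets left 0.13 (adjusted p = 0.389) and 0.14 (adjusted p = 0.228). Hsph1 (HSP110, an exchange factor of HSP70) was at 9.997, 10.006, 10.009 and 10.034 in wild-type scratched and at 10.07, 10.13, 10.21 and 10.17 in Mmp7-null scratched cultures. That difference of 0.13 (SE 0.04, adjusted p = 0.0432) separated the groups, and with the mean of its probe sets it was 0.14 (adjusted p = 0.161). Dnajb1 (HSP40) was at -0.19 there, Hspa8 (the constitutive HSC70) at 0.12 and Hspb1 (HSP27) at 0.04, and none of them passed in any comparison.

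**Figure D2:**
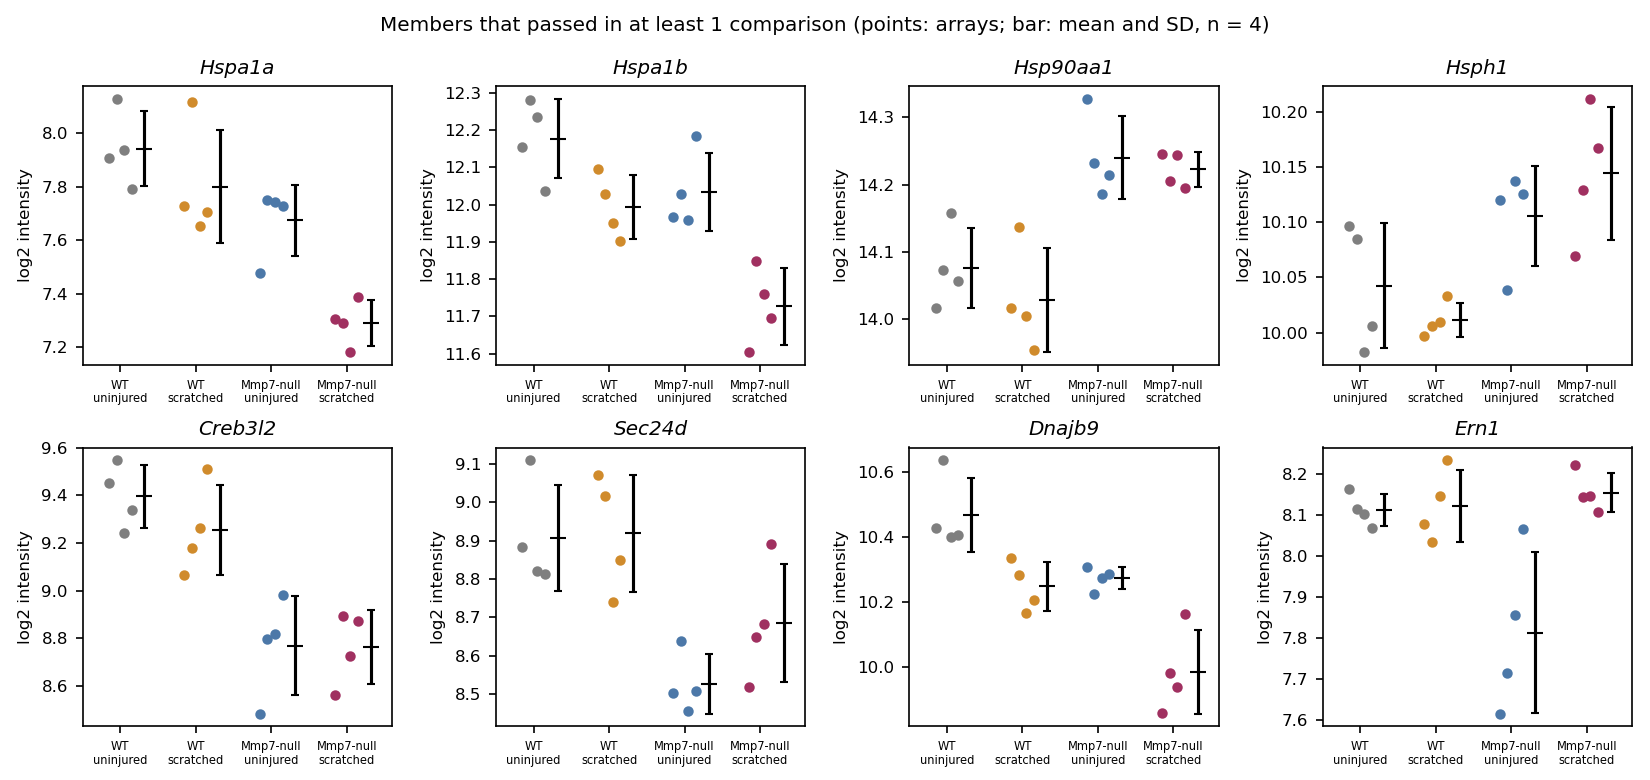
Log2 intensity (vertical axis) on each array (points) and the mean with its SD (bar, n = 4) in each of the 4 groups, for the 8 genes that passed in at least 1 comparison; the vertical axes differ between panels. Hspa1a and Hspa1b are lowest in Mmp7-null scratched cultures, Creb3l2 is low in both Mmp7-null groups, and Ern1 is low in Mmp7-null uninjured cultures.

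The genotype calls were lost with the spiked-control set as a block. With it 0 of 39 genes passed by limma in uninjured and 0 in scratched cultures (7 and 8 at an unadjusted p under 0.05). The adjusted p was 0.309 and 0.42 for Creb3l2 (-0.47 and -0.34), 0.18 for Sec24d (-0.48) and 0.503 for Ern1 (-0.23). For the cytosolic genes in scratched cultures it was 0.207 for Hspa1a (-0.45), 0.267 for Hspa1b (-0.25), 0.246 for Hsph1 (0.14) and 0.133 for Hsp90aa1 (0.21), and in uninjured cultures 0.313 for Hsp90aa1 (0.18). Dnajb9 had -0.30 there (adjusted p = 0.208). Over all genes the block left 57 calls in uninjured and 252 in scratched cultures. Within the Phe set, 2 Mmp7-null arrays were set against 1 wild-type array. In uninjured cultures the difference was -0.55 for Creb3l2, -0.40 for Sec24d, -0.20 for Ern1 and 0.18 for Hsp90aa1. In scratched cultures it was -0.49 for Hspa1a, -0.29 for Hspa1b, -0.38 for Dnajb9, -0.26 for Creb3l2, 0.21 for Hsp90aa1 and 0.17 for Hsph1. The full groups did not overlap for any of these genes, so the sign within the set was fixed in advance. Only the sizes are informative.

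The scratch calls in Mmp7-null cultures could be compared within both of their sets. Scratched minus uninjured was -0.26 in the Lys and -0.32 in the Phe set for Dnajb9, -0.27 and -0.50 for Hspa1a, -0.35 and -0.27 for Hspa1b, and 0.50 and 0.18 for Ern1. With the set as a block Dnajb9 (adjusted p = 0.0451), Hspa1b (adjusted p = 0.0233) and Ern1 (adjusted p = 0.0222) passed, and Hspa1a (adjusted p = 0.0767) did not. Without the 3 doubtful arrays, or without Mmp7-null scratched culture 1 alone, limma passed 0 of the 39 genes (8 at an unadjusted p under 0.05 in both): the adjusted p was 0.0631 and 0.0658 for Dnajb9 (-0.25 in both), 0.061 and 0.0581 for Ern1 (0.32), 0.0779 and 0.0888 for Hspa1a (-0.39), and 0.0577 and 0.0618 for Hspa1b (-0.27). Between genotypes in scratched cultures, Hspa1a alone of the 6 kept its call without the doubtful arrays, at -0.64 (adjusted p = 0.0215), and Chac1 passed beside it. Creb3l2 was then at -0.29 (adjusted p = 0.29), and the adjusted p was 0.0779 for Dnajb9, 0.0826 for Hspa1b, 0.0593 for Hsph1 and 0.211 for Hsp90aa1.

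Single cultures also set how many genes passed. For scratch in Mmp7-null cultures, 2, 1, 2 and 1 passed without Mmp7-null uninjured culture 1, 2, 3 or 4. For genotype in uninjured cultures, Creb3l2 passed alone without Mmp7-null uninjured culture 1 or 3 or wild-type uninjured culture 1 or 2. It passed with Sec24d, as 2 genes, without Mmp7-null uninjured culture 2, Mmp7-null scratched culture 2 or 3, or wild-type uninjured culture 4. For genotype in scratched cultures, 3 passed without wild-type scratched culture 1, 2 or 3, or without Mmp7-null scratched culture 1 or 3, and Hspa1a and Hsp90aa1 were among them each time.

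The ER arm was set beside all genes array by array. The median difference of the 32 ER genes between genotypes was -0.12 in uninjured cultures, beside -0.01 over all genes. Of the 32 differences 28 were negative, those of Ern2 and Creb3l1 at background among them, and no share over all genes is given for this count. The median deviation of the 30 ER genes above background from their own means was 0.05 to 0.11 on wild-type uninjured arrays. It was -0.11 to 0.01 on Mmp7-null uninjured arrays, so the groups did not overlap. Over all genes the median was -0.02 to 0.04 and -0.01 to 0.01 on these arrays. How often other lists separate the groups in this way was not tested. After scratch the ER median deviation was -0.00 to 0.08 on wild-type and -0.17 to -0.02 on Mmp7-null arrays. On the latter the median over all genes was also low, at -0.09 to -0.01. In the Phe set, which alone both genotypes shared, the ER median deviation was 0.11 on the wild-type and -0.03 and 0.01 on the Mmp7-null uninjured arrays. After scratch it was -0.002 on the wild-type and -0.05 and -0.02 on the Mmp7-null arrays of that set. No value with the set as a block is given for the arm. The median ER difference between scratched genotypes was -0.05 beside -0.04 over all genes. The cytosolic genes gave 0.06 and 0.04 and split by gene. Mean levels of Hspa1a, Hspa1b and Dnajb1 were lower in Mmp7-null cultures in both states. Those of Hspa8, Hsph1, Hsp90aa1 and Hspb1 were higher, and not all of these differences passed. No test was made over a list.

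The 8 genes with the ER stress response element were counted apart. By limma 0 of 8 passed in each of the 5 comparisons (2, 2, 4, 2 and 0 at an unadjusted p under 0.05). The order is scratch in wild-type, scratch in Mmp7-null, genotype uninjured, genotype scratched and difference between responses. Over all genes 4.85%, 4.72%, 4.79%, 6.21% and 0.132% passed in that order. With shares this low, 0 of 8 says nothing particular to these genes. Their differences ran from -0.20 to 0.02 and from -0.15 to 0.22 for scratch in wild-type and Mmp7-null cultures, and from -0.41 to -0.05 and from -0.19 to 0.07 between genotypes uninjured and scratched. Of the 19 other ER genes with a window, 0, 2, 3 and 2 passed in the scratch and genotype comparisons (2, 3, 7 and 6 at an unadjusted p under 0.05). In uninjured cultures the medians of the 2 sets of genes between genotypes were -0.16 with the element and -0.12 without.

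**Figure D3:**
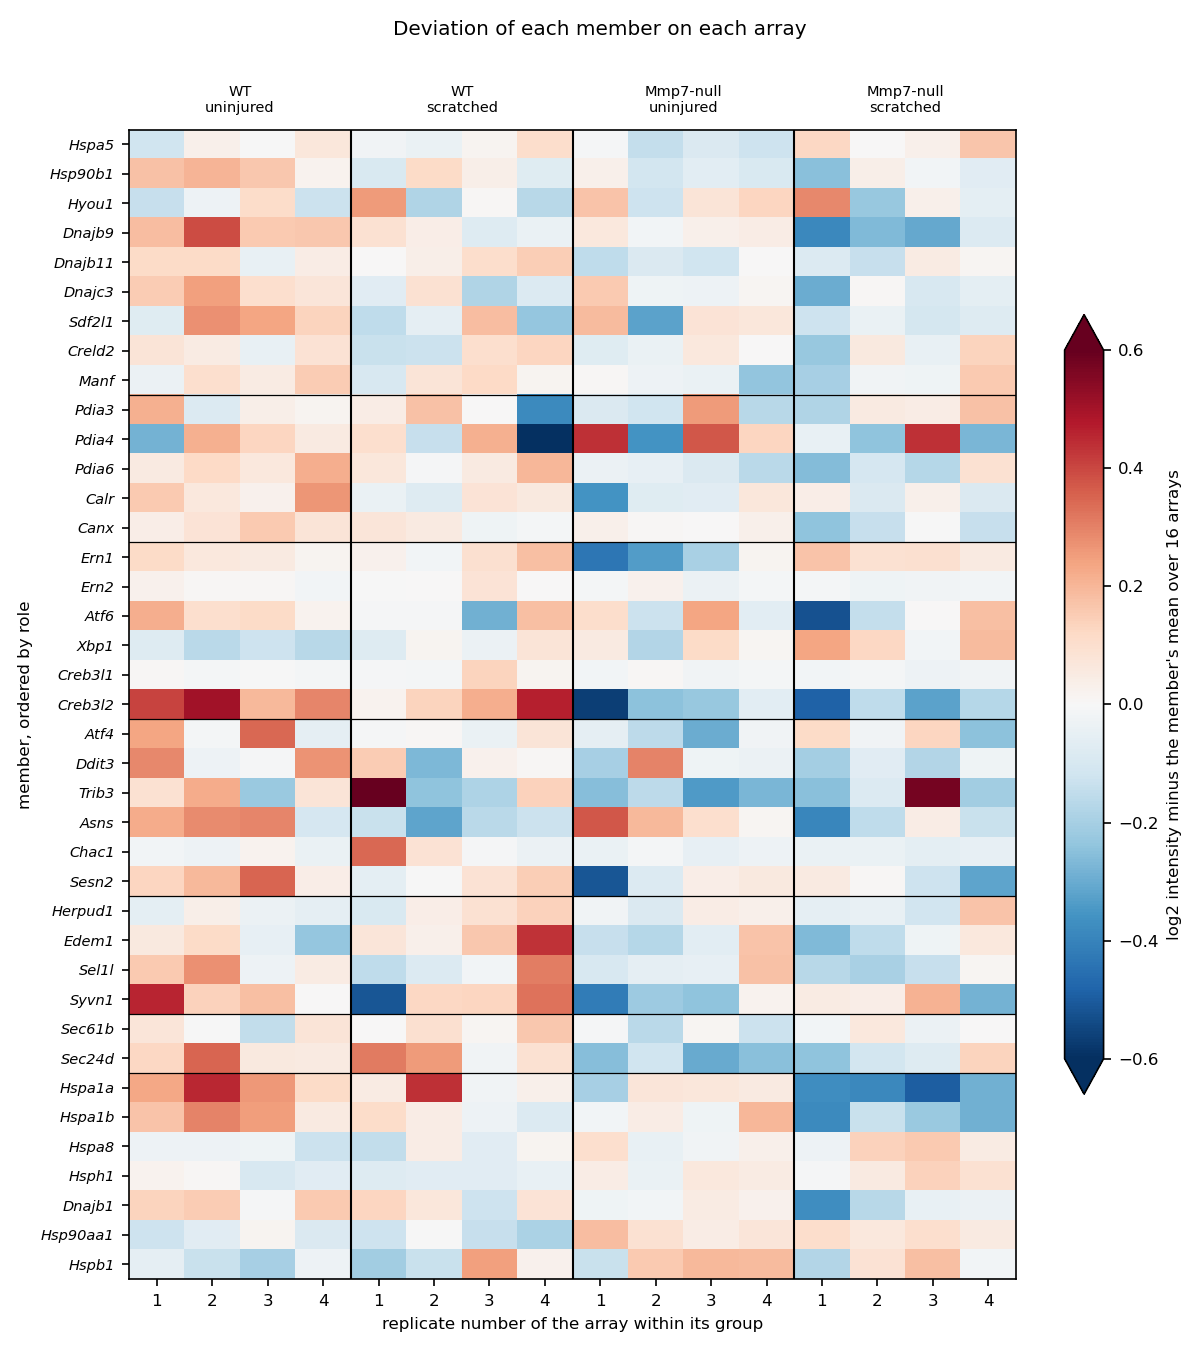
Deviation of each gene's log2 intensity from its own mean over the 16 arrays (colour, limited to 0.6 in either direction), genes in rows by role and arrays in columns by group. The Mmp7-null columns are lower for Creb3l2 and, after scratch, for Hspa1a and Hspa1b, while most ER genes vary by array as much as by group.

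Markers of cell types moved along with these comparisons. Multiciliated cell markers were higher in Mmp7-null cultures for 8 of 12 genes uninjured and 11 of 12 scratched, and their summed log2 level was 12.5 to 12.7 and 12.4 to 12.6 in wild-type against 13.2 to 13.4 in each Mmp7-null group. Goblet and mucous markers rose after scratch for 2 of 13 genes in wild-type and 4 of 13 in Mmp7-null cultures, with a summed level of 9.68 to 9.87 before and 11.1 to 11.7 after in wild-type, and of 9.53 to 10.1 before and 10.8 to 11.5 after in Mmp7-null cultures. Alveolar markers differed between genotypes for 4 of 9 genes uninjured (1 higher, 3 lower) and 5 of 9 scratched (1 higher, 4 lower), with Cldn18 at -2.46 and -2.05 and Ager at -2.29 and -2.35, while Sftpc was the higher gene in both, at 1.80 in scratched cultures. Their summed level was 14.4 to 14.5 in wild-type uninjured, 14.6 to 14.8 in wild-type scratched, 14.0 to 14.2 in Mmp7-null uninjured and 14.3 to 14.4 in Mmp7-null scratched cultures. Of 8 basal markers 2 were lower after scratch in each genotype, and between genotypes 0 were higher and 2 lower uninjured and 1 higher and 2 lower scratched, with Igfbp2 at -1.81 and -1.85. The basal sum was 14.6 to 14.7, 14.5 to 14.6, 14.6 to 14.7 and 14.2 to 14.4 in the same order of groups. Of 8 club cell markers 1 and 0 were lower after scratch, and 2 and 1 lower in Mmp7-null cultures, with Cyp2b10 at -0.57 and -0.76, and their sum ran from 17.3 to 17.5 over all groups. Of 6 plasma cell markers only Sdc1 was above background, of 8 leukocyte markers 4, and of 12 fibroblast and smooth muscle markers 5 to 6, with a summed level of 7.13 to 7.49 in wild-type uninjured, 7.97 to 8.50 in wild-type scratched, 7.90 to 8.53 in Mmp7-null uninjured and 8.66 to 9.39 in Mmp7-null scratched cultures. Of the 12 fibroblast and smooth muscle markers only Acta2 and Dcn passed in any comparison by limma, each time higher. Dcn rose by 1.58 and 1.23 after scratch in wild-type and Mmp7-null cultures. Acta2 was at 1.37 and 1.10 between genotypes uninjured and scratched. A higher sum thus does not show a rise of the whole list. Among the leukocyte markers only Cd68 passed in any comparison by limma. It rose by 1.03 (adjusted p = 0.000407) after scratch in wild-type cultures and was at -0.92 (adjusted p = 0.00115) between scratched genotypes. Its scratch response differed between genotypes by -1.12 (adjusted p = 0.0434). In bulk cultures, fewer cells of a type and less RNA per cell cannot be told apart. The part of these markers in the results above was not tested.

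Beyond the 39 genes, 8 lists of related genes were counted. After scratch, other ER folding enzymes gave 5 higher and 1 lower of 34 measured in wild-type cultures, and 2 higher and 1 lower in Mmp7-null cultures. Agr2, the disulfide isomerase of mucous cells that mucin folding needs, rose most. Its levels were 8.98 to 9.29 in wild-type uninjured, 11.66 to 11.73 in wild-type scratched, 9.10 to 9.72 in Mmp7-null uninjured and 10.72 to 11.26 in Mmp7-null scratched cultures. The rise was 2.54 (SE 0.13, adjusted p = 1.57e-07) in wild-type and 1.44 (SE 0.13, adjusted p = 7.18e-05) in Mmp7-null cultures. Ero1a (the oxidase that recharges the isomerases) rose by 0.41 and 0.46, and Pdia5 by 0.47 in wild-type cultures.

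Secretory transport showed the same contrast in 1 gene. Sec23b, a COPII coat subunit, rose by 1.15 (SE 0.07, adjusted p = 5.77e-07) in wild-type and 0.58 (SE 0.07, adjusted p = 0.000383) in Mmp7-null cultures. Of 44 ER-Golgi genes measured, 2 passed, all higher, in each genotype, with Kdelr3 (a KDEL receptor) at 0.38 in wild-type and Sec16a at 0.31 in Mmp7-null cultures. Agr2 and Sec23b were the only genes of the 8 lists whose scratch responses differed between genotypes, by -1.10 (SE 0.19, adjusted p = 0.0434) and -0.57 (SE 0.10, adjusted p = 0.0434). With the set as a block the adjusted p was 0.0889 and 0.0693, and without the doubtful arrays 0.123 and 0.118.

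Among other UPR sensors and effectors (24 measured), scratch gave 1 higher and 3 lower in wild-type and 2 higher and 1 lower in Mmp7-null cultures. Ppp1r15a (GADD34, which reverses the translation block of PERK) rose in both, by 0.61 (adjusted p = 0.00231) and 0.54 (adjusted p = 0.00759). Atf5 fell by 0.57 and Cebpb by 0.29 in wild-type cultures, and Atf3 rose by 0.57 and Casp12 fell by 0.32 in Mmp7-null cultures. Other ATF4 targets (33 measured) gave 2 higher and 1 lower, and 3 higher and 0 lower. Slc1a4 (a neutral amino acid transporter) rose in both, by 0.57 (adjusted p = 0.00563) and 0.83 (adjusted p = 0.000581). Vldlr was at 0.71 in wild-type, and Slc7a1 at 0.43 and Slc7a11 at 0.83 in Mmp7-null cultures. Other probe sets of Vldlr gave only 0.04 to 0.09 in wild-type cultures. Those of Slc1a4 gave 0.27 and 0.10 in wild-type, and 0.49 and 0.86 in Mmp7-null cultures. Slc1a4 differed in the opposite direction to Asns in both genotypes. Slc7a1 and Slc7a11 did so in Mmp7-null cultures, where other probe sets gave 0.10 and -0.02 for Slc7a1 and 0.15 for Slc7a11. In wild-type cultures the mean of Slc7a1 went from 8.63 uninjured to 8.49 scratched, the same direction as Asns.

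In the remaining lists the counts after scratch were low. Other degradation genes (24 measured) gave 0 higher and 1 lower in each genotype, Ngly1 at -0.26 in wild-type and Ubxn4 at -0.25 in Mmp7-null cultures. Translocon, signal peptidase and oligosaccharyltransferase genes (32 measured) gave 0 higher, with 3 and 4 lower, among them Ost4 at -0.24 and Srp14 at -0.22 in Mmp7-null cultures. Another probe set of Ost4 gave -0.03 there. Other cytosolic chaperones (47 measured) gave 1 higher and 1 lower in wild-type and 0 by limma in Mmp7-null cultures (11 at an unadjusted p under 0.05). Mitochondrial chaperones (10 measured) gave 1 higher in each, Grpel2, at 0.35 and 0.25.

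Between genotypes, other ER folding enzymes gave 1 higher and 0 lower uninjured, and 1 higher and 6 lower scratched. The higher one was Agr3 (0.69 and 0.70), a paralog of Agr2 known from multiciliated cells, and of the genes of this list that passed in scratched cultures, it alone also did so with the set as a block (adjusted p = 0.0329). Sil1 (a BiP exchange factor) was at -0.43, Ppic at -0.37 and Agr2 at -0.74 in scratched cultures. Other cytosolic chaperones gave 2 higher and 3 lower uninjured, and 0 higher and 2 lower scratched. Cryab (the small heat shock protein alpha B-crystallin) was lower in both states, at -0.60 (SE 0.10, adjusted p = 0.00339) and -0.68 (SE 0.10, adjusted p = 0.00115), and with the set as a block the adjusted p was 0.0683 and 0.0325. Dnajb6 was at 0.26 and Hspa4l at 0.45 in uninjured cultures.

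Other UPR genes gave 1 higher and 3 lower uninjured and 0 higher and 1 lower scratched, led by Atf3 (a stress-induced transcription factor) at -0.95 (SE 0.15, adjusted p = 0.00219; 0.134 with the block) and Wfs1 (an ER membrane protein) at -0.37 and -0.39. ER-Golgi genes gave 0 higher and 3 lower uninjured, among them Ergic1 at -0.45 and Sec24a at -0.34, and 0 higher and 1 lower scratched, Sec23b at -0.43. In uninjured cultures other probe sets gave -0.02 for Sec24a and -0.39 to -0.005 for Ergic1. ATF4 targets gave 0 higher and 3 lower uninjured (Slc7a1 at -0.38, Slc6a9 at -0.42 and Shmt2 at -0.42) and 0 of 33 by limma scratched (7 at an unadjusted p under 0.05). Degradation genes gave 1 lower in each state (Nploc4 and Ube2g2), translocon genes 0 of 32 uninjured by limma (7 at an unadjusted p under 0.05) and 2 lower scratched (Rpn2 and Krtcap2), and mitochondrial chaperones 1 lower uninjured (Dnaja3) and 0 of 10 scratched (1 at an unadjusted p under 0.05). The share of all genes passing, given above for each comparison, is the background for these counts. Of the related genes that passed between genotypes, only Agr3 and Cryab, both in scratched cultures, also passed by limma with the set as a block. Wfs1 was then at -0.20 uninjured and -0.22 scratched (adjusted p = 0.579 and 0.375).

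**Figure D4:**
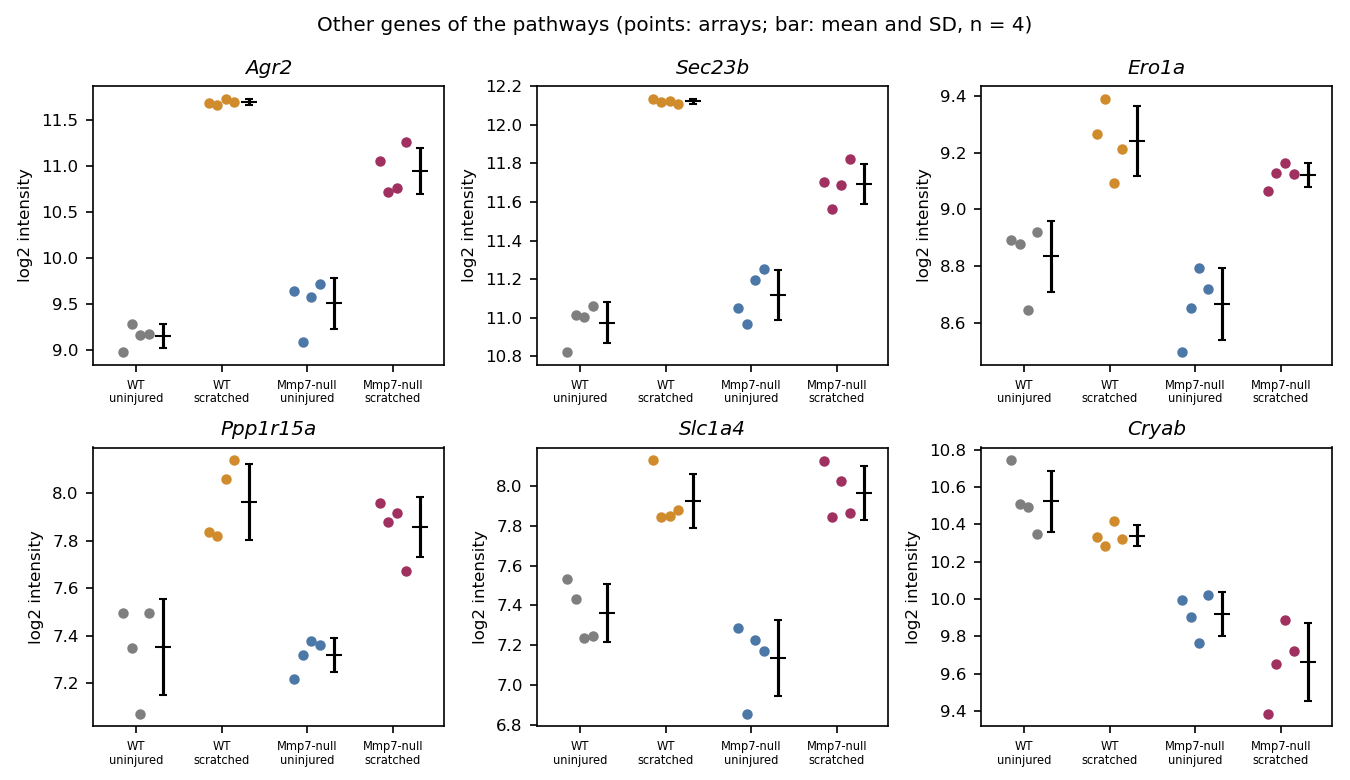
Log2 intensity (vertical axis) on each array (points) with the group mean and SD (bar, n = 4) for 6 related genes outside the 39, in the 4 groups; the vertical axes differ between panels. Agr2 and Sec23b are higher after scratch in both genotypes and higher in wild-type than in Mmp7-null scratched cultures, and Cryab is lower in both Mmp7-null groups.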

How the data were processed

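RNA of 16 cultures was hybridised to 1 array each. The deposited intensities are linear values made by the authors with RMA, which corrects for background, equalises the arrays and summarises the probes of a set (per the submitters' processing notes, which give no version). The table holds 45101 probe sets, which is more than the 430A 2.0 array named in the labels holds. Of these, 34945 carried 1 gene symbol, 932 several and 9160 none, and 64 were controls; only the first kind was used. From the deposited intensities, log2 values were computed here with no further normalization. RMA forces the arrays towards 1 distribution, so a change shared by most genes would not be seen.

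The brightest probe set over all arrays stood for each of the 18193 genes, of which 12562 (69%) were above background. One mean per group was fitted with limma 3.58.1 in R 4.3.3 (12 residual degrees of freedom, eBayes), two-sided, for 5 comparisons, with Benjamini-Hochberg adjustment and a threshold of 0.05. The number of arrays limits the precision; the median SE over genes above background was 0.10 for scratch and genotype and 0.14 for the difference between responses. The fit was tested on simulated data. The spiked sets were read from control probe sets above 8 on the log2 scale. Promoters were searched with Python 3.11.15 in RefSeq sequences.

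The members and the related and marker lists were chosen with earlier results of these data known, and so were the alternatives, among them the spiked sets and the 3 doubtful arrays. Genes outside the 39 were named by rule: up to 3 passing genes of smallest adjusted p per list and comparison. Hyou1, Hspa5, Calr and Asns probe sets, other probe sets of related genes, the markers given by name, and single arrays of Pdia4, Trib3 and Chac1 were named after their values were seen. Alternatives were the replicate number or spiked set as a block, fewer arrays or genes, other treatments of probe sets and variance, array weights, centring and repeated quantile normalization.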

Additional observations from a re-analysis of the deposited data

Results flagged for a closer look

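In 7 of 156 sets of 4 arrays (39 genes in 4 groups), 1 array lay far from the other 3: its gap to the nearest was above Dixon's 95% limit for the share of the group's range. Chance gives such a gap in about 1 group in 20.

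Of these, 3 concern genes with a call. Dnajb9 was at 10.6359 in wild-type uninjured culture 2, where the others were at 10.3986 to 10.4264. Hspa1a was at 8.11596 in wild-type scratched culture 2 (others 7.65441 to 7.72802) and at 7.47711 in Mmp7-null uninjured culture 1 (others 7.73021 to 7.74979). The first lies above and the second below its group. Hspa1a kept its call between scratched genotypes without the first array, and the second is not part of that comparison. Without the second array Hspa1a kept its call for scratch in Mmp7-null cultures. That call was lost in 10 of the 16 omissions of a single culture.

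Other cytosolic genes had 3 such arrays. Hspa8 was at 13.9346 in wild-type uninjured culture 4 (others 14.0319 to 14.0372), Dnajb1 at 10.2773 in wild-type uninjured culture 3 (others 10.4152 to 10.4417) and Hspb1 at 10.8544 in Mmp7-null uninjured culture 1 (others 11.1475 to 11.1828). Hspb1 and Hspa1a were thus both low in Mmp7-null uninjured culture 1. Ern2 was at 2.3884 in wild-type scratched culture 3 (others 2.30434 to 2.30974), which is background. The difference between genotypes in scratch response was tested for every gene and passed for none of the 39.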

How the results depend on the processing

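Counts of passing genes changed by over 1.5 times under these settings. For scratch in wild-type cultures (0 at first), 1 passed with the dimmest 40% of genes left out (Asns), with array weights (Asns), with quantile normalization repeated (Dnajb9) and without the 3 doubtful arrays (Chac1, higher). For scratch in Mmp7-null cultures (4), 1 passed with only the 8 arrays compared (Hspa1a) and 0 without the doubtful arrays. For genotype in uninjured cultures (4), 2 passed with the replicate block, only the 8 arrays, the probe sets averaged, a variance with trend and robust moderation, weighted arrays, and arrays centred on the median, each time Creb3l2 and Sec24d, and 0 with the spiked set as a block. For genotype in scratched cultures (6), 3 passed with the replicate block (Creb3l2, Hspa1a and Hsp90aa1), 0 with only the 8 arrays (9 at an unadjusted p under 0.05), 0 with the spiked set as a block and 2 without the doubtful arrays (Chac1 and Hspa1a). The count for the difference between responses was 0 in every setting run, by limma, with 1 to 6 at an unadjusted p under 0.05. The cause of these changes was not tested.

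Leaving out 1 culture at a time gave 0 to 1, 0 to 4, 1 to 5, 3 to 6 and 0 to 0 passing genes for the 5 comparisons. For scratch in wild-type cultures the 1 came without Mmp7-null scratched culture 1 (Asns), Mmp7-null scratched culture 4 (Dnajb9) or wild-type uninjured culture 4 (Asns). Creb3l2 in uninjured cultures, and Hspa1a and Hsp90aa1 in scratched cultures, kept their genotype call without any single culture.

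Over the other alternatives the adjusted p ran, for scratch in Mmp7-null cultures, from 0.014 to 0.0669 (Dnajb9), 0.0198 to 0.693 (Ern1), 0.0308 to 0.0779 (Hspa1a) and 0.00692 to 0.0721 (Hspa1b). For genotype in uninjured cultures it ran from 0.00083 to 0.309 (Creb3l2), 0.00764 to 0.18 (Sec24d), 0.0338 to 0.742 (Ern1) and 0.0379 to 0.389 (Hsp90aa1). For genotype in scratched cultures it ran from 0.00142 to 0.207 (Hspa1a), 0.0026 to 0.42 (Creb3l2), 0.009 to 0.208 (Dnajb9), 0.0191 to 0.267 (Hspa1b), 0.00303 to 0.246 (Hsph1) and 0.0179 to 0.228 (Hsp90aa1). Of the values of these genes under all alternatives, 232 kept side and direction, 132 kept direction and lost the threshold, and 0 changed direction.

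The replicate numbers are not said to pair cultures, and same-numbered cultures correlated between -0.22 and 0.32 in their deviations from group means, so the block is a check only. With the replicate block scratch gave 0 and 4 passing genes. The 4 cultures per group limit the precision.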
